A study of Mus musculus with 8 samples.

Results

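The genes described here are the glucocorticoid receptor gene Nr3c1 and 9 of its known target genes, Fkbp5, Tsc22d3, Sgk1, Zbtb16, Plin4, Mt1, Mt2, Cdkn1a and Ddit4. They were chosen by name as 10 of the 24421 genes in the deposited table, with earlier results of these data known. RNA-seq was done on dorsal root ganglia (DRG), which hold the cell bodies of sensory neurons, taken at lumbar levels L3 to L5 from C57BL/6J mice. The mice were wild-type males of at least 8 weeks of age. Inflammation was induced by 20 µl of a 1% solution of carrageenan, a seaweed polysaccharide, under the skin of the left hind paw. DRG were taken before the injection (0d) and 1, 3 and 30 days after it (1d, 3d and 30d), with 2 libraries per time point. Each library was made from 2 to 3 pooled mice. The 0d mice had no injection, and no vehicle-injected group was analysed here, so carrageenan, the injection itself and time cannot be told apart.

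Glucocorticoids are steroid hormones of the adrenal cortex, released in stress and in a daily rhythm. They bind the glucocorticoid receptor, which is held ready in the cytoplasm by Hsp90 and its co-chaperones, then moves to the nucleus and binds glucocorticoid response elements in the DNA near target genes. The targets include genes that limit inflammation, genes of lipid and protein metabolism, and genes such as Fkbp5 that dampen the receptor in turn. Sensory neurons and the glia around them both carry the receptor.

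Promoter sequences are shown for the 3 targets whose RefSeq windows hold the motifs of the receptor or of metal response most densely. The windows run from 250 bases before the start site to 50 bases from it onwards (build GRCm38.p6, plus strand for these 3 genes). The search covered 16 windows of 8 of the 10 genes. Nr3c1 was left out of it, and Zbtb16 had no window. In Mt1 and Mt2 the capitals mark metal response elements, searched as TGCACNC and TGCGCNC on both strands. In Sgk1 the capitals mark a palindrome of the half-sites AGAACA and TGTTCT set 3 bases apart.
Mt2, chr8:94172368-94172667: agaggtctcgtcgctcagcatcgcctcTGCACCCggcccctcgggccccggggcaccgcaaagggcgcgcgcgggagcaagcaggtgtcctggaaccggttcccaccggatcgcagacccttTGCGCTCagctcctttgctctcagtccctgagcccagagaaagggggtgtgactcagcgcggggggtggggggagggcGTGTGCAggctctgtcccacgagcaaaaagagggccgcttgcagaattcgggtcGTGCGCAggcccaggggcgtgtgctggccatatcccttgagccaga
Mt1, chr8:94178839-94179138: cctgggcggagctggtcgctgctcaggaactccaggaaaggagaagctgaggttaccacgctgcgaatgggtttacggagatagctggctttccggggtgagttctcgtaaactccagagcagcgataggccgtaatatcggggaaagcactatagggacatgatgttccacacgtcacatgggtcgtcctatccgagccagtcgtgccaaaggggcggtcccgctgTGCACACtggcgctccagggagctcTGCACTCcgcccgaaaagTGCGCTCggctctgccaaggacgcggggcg
Sgk1, chr10:21993640-21993939: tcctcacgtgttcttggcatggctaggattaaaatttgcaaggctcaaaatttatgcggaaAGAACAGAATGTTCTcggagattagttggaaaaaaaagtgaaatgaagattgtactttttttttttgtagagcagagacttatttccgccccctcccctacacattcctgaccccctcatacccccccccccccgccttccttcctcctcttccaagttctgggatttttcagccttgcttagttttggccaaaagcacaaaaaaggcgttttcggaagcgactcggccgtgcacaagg
Mt2 held 4 metal response elements, which began 223, 128 and 50 bases before the start site and at base 5 from it. Mt1 held 3 of them, which began 23 bases before the start site and at bases 3 and 21 from it. Of all 32851 windows, 25.7% held at least 1 such element and 1.97% held 3 or more. Among the windows of these genes the share was 25.0%, or 4 of 16, with 1 element each in a window of Sgk1 and of Ddit4 beside those of Mt1 and Mt2. The full palindrome in this Sgk1 window, which is 1 of several Sgk1 start sites, began 189 bases before the start site and includes a half-site match on each strand. It was found in 3 of the 32851 windows (0.009%). With up to 2 mismatches it was found in 1.8% of all windows and, among the windows of these genes, only in 2 of Sgk1. A half-site alone was found in 19.0% of all windows and in 4 of the 16 windows of these genes. The windows cover only the start sites, and a match says nothing about binding in these libraries.

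Library totals were between 44123208 and 73580338 counts, and all 10 genes were among the 17328 that passed the filter on low counts. Levels are given as CPM, counts relative to library size, scaled by TMM library factors of 0.993 to 1.01. The spread between replicate libraries exceeded sampling noise at every time point. The chi-square over genes, divided by its degrees of freedom, was lowest at 3d (7.22) and highest at 30d (25.6), where the correlation of log2 CPM was also lowest (0.979). The labels name neurons, but the libraries hold whole ganglia. All 10 sensory neuron markers were above 1 CPM in every library, with summed levels of 14500 to 15700 CPM, and markers of Schwann cells reached 5350 to 10700 CPM. In such bulk samples, fewer cells of a type and less RNA per cell cannot be told apart.

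At 0d the levels per kilobase of gene length (RPKM) ranged from 0.311 ± 0.00661 (SD, n = 2) for Plin4 to 62.5 ± 0.518 for Mt1. The order from the highest was Mt1, Tsc22d3, Ddit4, Cdkn1a, Mt2, Fkbp5, Nr3c1, Sgk1, Zbtb16 and Plin4, and the libraries of neighbours in this order did not overlap. At 30d, Tsc22d3 had the highest mean RPKM, 60.2 ± 3.55, but its libraries overlapped those of Mt1, at 52.3 ± 12. Zbtb16 and Plin4 were the 2 lowest at every time point.

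At 3d, Tsc22d3 and Sgk1 rose above 0d, by 1.36-fold and 1.62-fold, where 0.219% of all tested genes were called. Changes below are log2 fold changes with their standard errors. At 30d, 5 of the 9 targets fell below 3d, namely Mt1, Mt2, Tsc22d3, Sgk1 and Ddit4, to between 0.378 and 0.75 of the 3d level, where 0.935% of all tested genes were called. The receptor gene itself passed the test in none of the 6 comparisons. In the plot of CPM by library, 8 of the 9 targets had their highest mean at 3d, the exception being Cdkn1a. The share of all genes with their highest mean at 3d was not computed. For Zbtb16 and Plin4, 30d replicate 1 (11.7 and 6.28 CPM) lay above both 3d libraries.

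**Figure D1:**
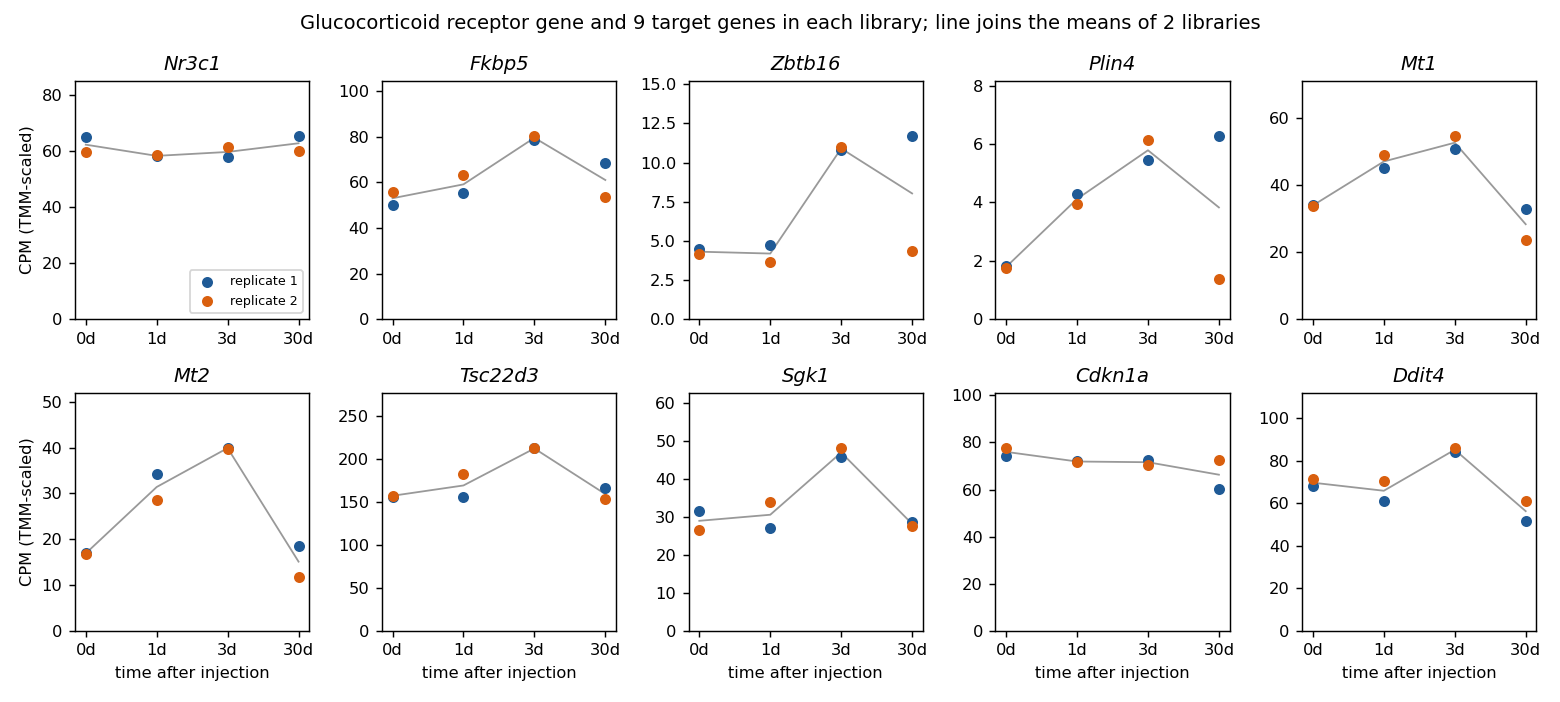
TMM-scaled CPM of Nr3c1 and its 9 targets (vertical axis from 0) at each time point, with 1 point per library and a line through the means of 2 libraries; time points are evenly spaced and not to scale. At 3d both libraries of 8 targets lie above both 0d libraries, as they do for 19.9% of all tested genes, while Nr3c1 stays between 57.8 and 65.4 CPM, and at 30d the libraries of Zbtb16 and Plin4 lie far apart.

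Nr3c1, on chromosome 18 (mm10, 39410545 to 39487245, minus strand), encodes the receptor that all the other genes answer to. It was measured at 65.1 and 59.6 CPM at 0d, 58.1 and 58.5 CPM at 1d, 57.8 and 61.6 CPM at 3d, and 65.4 and 60.2 CPM at 30d. The time points overlapped except that both 1d libraries lay below both 0d and both 30d libraries. Its log2 fold changes from 0d were -0.10 ± 0.06 (SE) at 1d, -0.06 ± 0.06 at 3d and 0.01 ± 0.06 at 30d, with edgeR's adjusted p of 1, 0.999 and 0.962.

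Fkbp5, on chromosome 17 (mm10, 28398753 to 28486149, minus strand), encodes an Hsp90 co-chaperone that lowers the receptor's affinity for its hormone. Its level was 50.2 and 55.8 CPM at 0d, 55.3 and 63.0 CPM at 1d, 78.6 and 80.3 CPM at 3d, and 68.4 and 53.7 CPM at 30d. Both 3d libraries lay above all 6 others. The 3d level was 1.5 times the 0d level (log2 fold change 0.58 ± 0.11), with an unadjusted p of 0.000762 and an adjusted p of 0.152 by edgeR, which does not pass the threshold of 0.05. From 3d to 30d the log2 difference was -0.38 ± 0.11 (adjusted p = 0.201), and from 1d to 3d it was 0.43 ± 0.11 (adjusted p = 0.512). DESeq2 called Fkbp5 in these 3 comparisons (adjusted p = 3.85e-06, 0.0104 and 0.00498). At 3d against 0d it was also called with the compared groups alone (adjusted p = 0.000363) and without 30d replicate 1 or 2 (0.000257 and 0.000313), with the fold change unmoved at 0.58. The compared groups alone also gave a call in 3d against 1d (0.42, adjusted p = 0.000114). Without 30d replicate 1 it was called in 30d against 3d (-0.57, adjusted p = 0.00201) and in 3d against 1d (0.43, adjusted p = 0.00418). Without 30d replicate 2 it was called in 3d against 1d (0.43, adjusted p = 0.00487) and in 30d against 0d (0.37, adjusted p = 0.0414).

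Tsc22d3, on chromosome X (mm10, 140539529 to 140600522, minus strand), encodes the glucocorticoid-induced leucine zipper GILZ, a mediator of the anti-inflammatory action of glucocorticoids. It was the most abundant of the 10 genes in CPM, with 156 and 157 CPM at 0d, 156 and 182 CPM at 1d, 212 and 213 CPM at 3d, and 166 and 153 CPM at 30d. The 3d libraries were above all others and within 1 CPM of each other. Tsc22d3 rose by 0.44 ± 0.06 (log2) from 0d to 3d (adjusted p = 0.0133) and fell by 0.42 ± 0.06 from 3d to 30d (adjusted p = 0.00888). The step from 1d to 3d, 0.33 ± 0.06, had an adjusted p of 0.0557 by edgeR and was called by DESeq2 (adjusted p = 0.00028), with no filter (0.00582) and with the compared groups alone (0.0133). It was also called without 1d replicate 2 (0.45, adjusted p = 0.0041) and without 30d replicate 1 or 2 (0.33, adjusted p = 0.0167 and 0.0195). The 3d against 0d call was lost without any 1 of the 4 libraries compared, at changes of 0.43 and 0.45 (adjusted p = 0.0963 and 0.0522) without 0d replicate 1 and 2 and of 0.44 each (adjusted p = 0.172 and 0.227) without 3d replicate 1 and 2. The 30d against 3d call was lost without 3d replicate 1 (-0.42, adjusted p = 0.139) or 2 (-0.41, adjusted p = 0.153).

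Sgk1, on chromosome 10 (mm10, 21882184 to 21999902, plus strand), encodes a kinase that acts on ion channels and transporters and whose promoter window is shown above. The libraries held 31.5 and 26.5 CPM at 0d, 27.2 and 33.9 CPM at 1d, 45.7 and 48.3 CPM at 3d, and 28.8 and 27.6 CPM at 30d. The 3d libraries stood above the other 6, which overlapped one another across 0d, 1d and 30d. It was the only one of the 10 genes called in all 3 comparisons with 3d by edgeR, with a rise of 0.70 ± 0.10 (log2) from 0d (adjusted p = 0.0152), a rise of 0.62 ± 0.10 from 1d (adjusted p = 0.0219) and a fall of 0.74 ± 0.10 to 30d (adjusted p = 0.00491). These comparisons share the 3d libraries and are not independent. Without 3d replicate 1 the 3 changes were 0.74, 0.66 and -0.78 (adjusted p = 0.143, 0.209 and 0.0659), and without 3d replicate 2 they were 0.66, 0.58 and -0.70 (adjusted p = 0.266, 0.395 and 0.103). The step from 1d also lost its call without 1d replicate 1 (0.47, adjusted p = 0.258), and the step to 30d without 30d replicate 2 (-0.71, adjusted p = 0.0593).

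Zbtb16, on chromosome 9 (mm10, 48654297 to 48835945, minus strand), encodes the zinc-finger transcription factor PLZF. It was measured at 4.48 and 4.14 CPM at 0d, 4.73 and 3.65 CPM at 1d, 10.8 and 11 CPM at 3d, and 11.7 and 4.38 CPM at 30d. One 30d library lay with the 3d libraries and the other with those of 0d and 1d. The 3d level was 2.53 times that of 0d (log2 fold change 1.34 ± 0.46, unadjusted p = 0.0299, adjusted p = 0.744 by edgeR). At the same change of 1.34 it was called with the compared groups alone (adjusted p = 0.00027) and without 30d replicate 1 (0.000167) or 2 (0.00016), but not by DESeq2 or limma-voom. The same 3 fits called it in 3d against 1d (adjusted p = 2.15e-06, 0.000157 and 0.000111), where the 8 libraries together gave 1.38 ± 0.46 (adjusted p = 1). Zbtb16 was called at 30d above 0d (1.44, adjusted p = 0.000657) and above 1d (1.48, adjusted p = 0.000363) without 30d replicate 2, and below 3d (-1.32, adjusted p = 0.00166) without 30d replicate 1.

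Plin4, on chromosome 17 (mm10, 56100591 to 56109802, minus strand), encodes a perilipin that coats lipid droplets and is abundant in fat and muscle. Plin4 was at 1.81 and 1.76 CPM at 0d, 4.29 and 3.94 CPM at 1d, 5.44 and 6.13 CPM at 3d, and 6.28 and 1.39 CPM at 30d. Both 1d and both 3d libraries were above 0d, while the 30d libraries were the highest and the lowest of all 8. Its log2 difference from 0d was 1.20 ± 0.71 at 1d (adjusted p = 1) and 1.69 ± 0.70 at 3d (adjusted p = 0.851). With the compared groups alone and without 30d replicate 1 or 2, the 3d difference was called at the same 1.69 (adjusted p = 0.00058, 0.000166 and 0.00016), and so was the 1d difference at 1.20 (adjusted p = 0.047, 0.00413 and 0.00253). DESeq2 and limma-voom called neither. Plin4 at 30d was called above 0d (1.81, adjusted p = 0.000591) without 30d replicate 2, and below 3d (-2.06, adjusted p = 0.000361) and 1d (-1.57, adjusted p = 0.003) without 30d replicate 1. The 2 libraries of 30d differed 4.54-fold for Plin4 and 2.66-fold for Zbtb16, gaps exceeded by 2.38% and 5.11% of all tested genes.

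**Figure D2:**
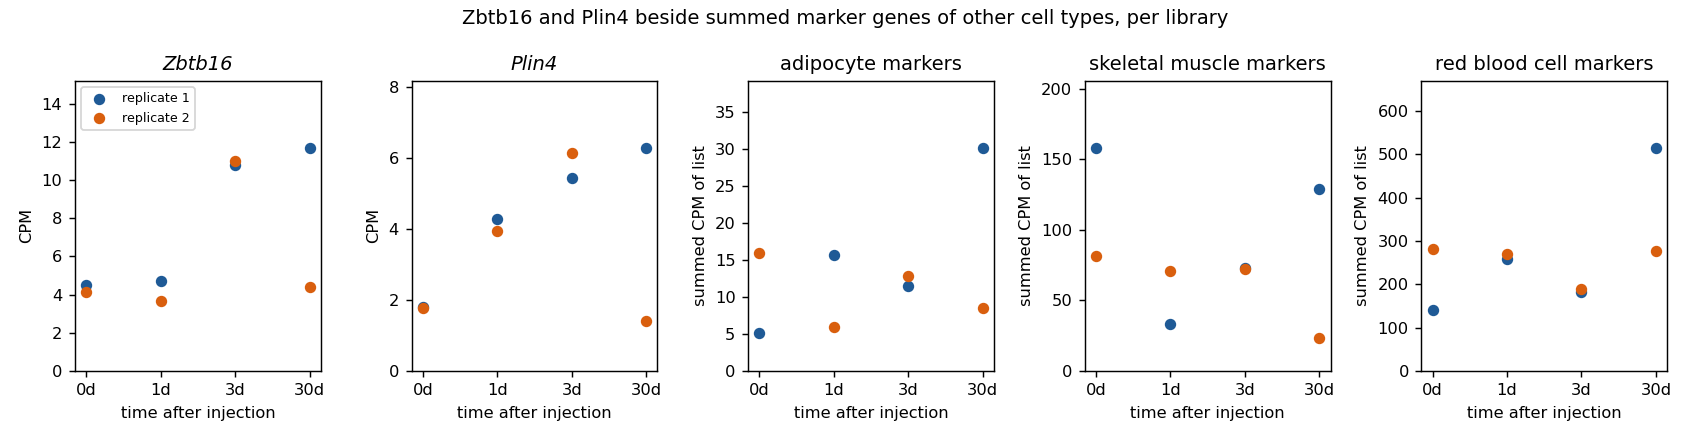
Zbtb16 and Plin4 in TMM-scaled CPM beside the summed CPM of adipocyte, skeletal muscle and red blood cell markers, with 1 point per library at evenly spaced time points. At 30d, replicate 1 (blue) is above replicate 2 (orange) in all 5 panels, by 11.7 against 4.38 CPM for Zbtb16 and 30.2 against 8.5 CPM for adipocyte markers.

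Summed markers of adipocytes, skeletal muscle, red blood cells, neutrophils, endothelial cells and macrophages were higher in 30d replicate 1, as were Zbtb16 and Plin4. Those of Schwann cells, satellite glia, fibroblasts and sensory neurons were lower there. The summed level of 5 adipocyte markers was 30.2 CPM in 30d replicate 1 and 8.5 in replicate 2, against 5.14 to 15.9 in the other libraries, with 1 of the 5, Lep, at 0 counts in 30d replicate 2 and in 1d replicate 2. The 8 skeletal muscle markers summed to 129 and 23.0 CPM at 30d, against 33.1 to 158 elsewhere, and the 5 red blood cell markers to 515 and 276 CPM, against 141 to 282. Hba-a1 and Hba-a2 among the latter had the same CPM in every library, so they may not be separate measurements. At 3d, where both libraries had high Zbtb16 and Plin4, adipocyte markers were at 11.5 and 12.8 CPM, within the range of 5.14 to 15.9 at 0d, and muscle markers at 72.8 and 72.0, below both 0d libraries (158 and 81.5). The part of these markers in the levels of Zbtb16 and Plin4 at 30d was not tested. In 30d replicate 1, 8 of the 10 genes were higher than in replicate 2, as were 50.4% of all tested genes.

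Mt1 and Mt2 lie side by side on chromosome 8 (mm10, 94179089 to 94180327 and 94172618 to 94173567, plus strand) and encode metallothioneins, small proteins that bind zinc and copper and are induced by metals as well as by glucocorticoids. Mt1 was measured at 34.1 and 33.7 CPM at 0d, 45.1 and 49.0 CPM at 1d, 50.6 and 54.6 CPM at 3d, and 32.9 and 23.7 CPM at 30d. Mt2 was measured at 17.0 and 16.8 CPM at 0d, 34.3 and 28.5 CPM at 1d, 40.0 and 39.8 CPM at 3d, and 18.5 and 11.8 CPM at 30d. For both genes the 1d and 3d libraries lay above all libraries of 0d and 30d, with no overlap between 1d and 3d.

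From 0d to 1d the log2 difference was 0.47 ± 0.13 for Mt1 (unadjusted p = 0.00614, adjusted p = 0.557) and 0.89 ± 0.20 for Mt2 (unadjusted p = 0.00368, adjusted p = 0.428). At 3d it was 0.64 ± 0.13 for Mt1 (adjusted p = 0.171) and 1.24 ± 0.20 for Mt2 (adjusted p = 0.129) by edgeR, so neither passed against 0d there. DESeq2 called both genes at 1d (adjusted p = 0.0105 and 2.65e-06) and at 3d (3.69e-05 and 2.36e-12). Mt2 at 3d was also called by limma-voom (0.0116), with no robust estimation (0.0194) and with the replicate number as a block (0.0189). With the compared groups alone both were called at 1d (0.0154 and 0.00198) and at 3d (0.00034 and 4.83e-06), and Mt2 was called in 3d against 1d (0.34, adjusted p = 0.0212), where the 8 libraries gave 0.35 ± 0.20 (adjusted p = 1). Without 30d replicate 1 or 2 both were also called, at 1d with an adjusted p of 0.00112 and 0.00114 for Mt1 and of 2.08e-05 and 2.56e-05 for Mt2, and at 3d with 0.00015 and 0.00016 for Mt1 and 1.92e-06 and 2.72e-06 for Mt2. Mt1 at 30d against 0d was -0.26 ± 0.13 (adjusted p = 0.471), and -0.51 (adjusted p = 0.0165) without 30d replicate 1. From 3d to 30d both fell, Mt1 by 0.90 ± 0.13 (adjusted p = 0.0224) and Mt2 by 1.40 ± 0.20 (adjusted p = 0.0385). The Mt1 call was lost without 0d replicate 1 (-0.90, adjusted p = 0.0537), 3d replicate 1 (-0.95, adjusted p = 0.164) or 3d replicate 2 (-0.84, adjusted p = 0.203). The Mt2 call was lost without any 1 of 5 libraries, with changes of -1.40 or -1.41 and an adjusted p of 0.106 and 0.101 without 0d replicate 1 and 2, 0.054 without 1d replicate 2, and 0.341 and 0.273 without 3d replicate 1 and 2. With the compared groups alone neither was called (adjusted p = 0.0849 and 0.0932). Mt1 was not called with the replicate number as a block (0.0573), nor Mt2 with upper-quartile scaling (0.0511) or with no filter (0.0926). Counting ignored strand, and an antisense gene of GENCODE vM21, Gm45774, overlaps 72.12% of the exon bases of Mt2, so reads from the 2 strands cannot be told apart there.

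The ratio of Mt2 to Mt1 in RPKM was 0.486 in both 0d libraries, 0.742 and 0.566 for the 1d libraries, 0.77 and 0.71 for 3d, and 0.548 and 0.483 for 30d. The 1d and 3d ratios were above both 0d ratios. Of 3 other genes of metal handling, Mt3, the neural metallothionein, fell from 151 and 159 CPM at 3d to 124 and 135 CPM at 30d (log2 fold change -0.26 ± 0.05, adjusted p = 0.0249), where 0.935% of all genes were called. That call was lost without 3d replicate 1 (-0.30, adjusted p = 0.169), 3d replicate 2 (-0.22, adjusted p = 0.467) or 30d replicate 1 (-0.20, adjusted p = 0.0576), and with no robust estimation (0.0575). The zinc exporter Slc30a1 (smallest p at 30d against 0d, -0.21 ± 0.10, adjusted p = 0.446) and the metal-sensing factor Mtf1 (-0.09 ± 0.09, adjusted p = 0.743) did not pass in any comparison.

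Cdkn1a, on chromosome 17 (mm10, 29090986 to 29100722, plus strand), encodes the cell cycle inhibitor p21, which p53 also induces. It was measured at 74.2 and 77.8 CPM at 0d, 72.0 and 71.8 CPM at 1d, 72.6 and 70.6 CPM at 3d, and 60.1 and 72.6 CPM at 30d. All later libraries were below both of 0d, by 0.20 ± 0.07 (log2) at 30d (unadjusted p = 0.0188, adjusted p = 0.308), and by 0.34 without 30d replicate 2, where it was called (adjusted p = 0.0157). Of 10 other p53 targets, none passed in any of the 6 comparisons by edgeR, DESeq2 or limma-voom, and between 0 and 2 had an unadjusted p under 0.05, as did 4.24% to 13% of all genes. The smallest p among them were those of Ccng1 at 30d against 0d (-0.17 ± 0.05, adjusted p = 0.191), Plk2 at 30d against 3d (0.20 ± 0.07, adjusted p = 0.255) and Aen at 30d against 3d (-0.15 ± 0.07, adjusted p = 0.384).

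Ddit4, on chromosome 10 (mm10, 59949675 to 59951770, minus strand), encodes REDD1, an inhibitor of the growth kinase complex mTORC1 that hypoxia and other stresses also induce. Ddit4 was at 68.1 and 71.4 CPM at 0d, 61.1 and 70.7 CPM at 1d, 84.3 and 86.2 CPM at 3d, and 51.8 and 60.9 CPM at 30d. The 3d libraries were the 2 highest and the 30d libraries the 2 lowest. Ddit4 fell by 0.60 ± 0.08 from 3d to 30d (adjusted p = 0.00403), a call that was lost without 3d replicate 1 (-0.61, adjusted p = 0.0659) or 2 (-0.58, adjusted p = 0.0815). It differed from 0d by 0.29 ± 0.08 at 3d (adjusted p = 0.329) and by -0.31 ± 0.08 at 30d (adjusted p = 0.172), and 3d differed from 1d by 0.37 ± 0.08 (adjusted p = 0.101). The 3d difference from 0d was called with the compared groups alone (adjusted p = 0.0193) and without 30d replicate 1 (0.29, adjusted p = 0.0468). The 30d difference was called by DESeq2 (adjusted p = 0.0386), with the replicate number as a block (0.0475) and without 30d replicate 2 (-0.43). The step from 1d to 3d was called by DESeq2 (adjusted p = 0.00383), with no filter (0.0193), with the compared groups alone (0.000988) and with the block (0.0089). It was also called without 1d replicate 2 (0.48) and without 30d replicate 1 or 2 (0.37 each).

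None of 11 other genes of the integrated stress response and of hypoxia passed in any comparison by edgeR, DESeq2 or limma-voom, and between 0 and 3 had an unadjusted p under 0.05, against 4.24% to 13% of all genes. Of these, the amino acid synthesis gene Asns differed by -0.14 ± 0.05 from 3d to 30d (adjusted p = 0.25), and the stress genes Trib3 and Chac1 by 0.53 ± 0.21 and -0.39 ± 0.16 from 1d to 30d (adjusted p = 0.361 and 0.369).

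**Figure D3:**
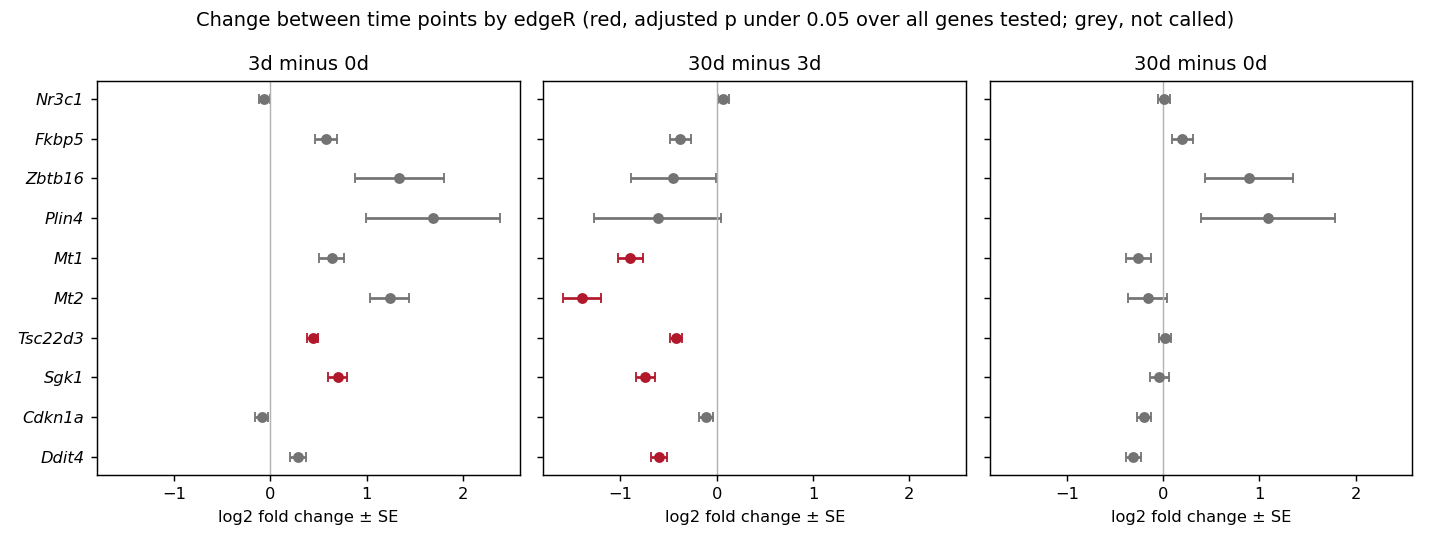
Log2 fold change of each of the 10 genes (points, horizontal axis) with its standard error (bars) in 3 comparisons by edgeR, on 1 shared scale, with genes called at an adjusted p under 0.05 in red. In 3d minus 0d the called genes are Tsc22d3 (0.44) and Sgk1 (0.70), in 30d minus 3d they are Mt1, Mt2, Tsc22d3, Sgk1 and Ddit4, and in 30d minus 0d there is none.

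Over the 10 genes, 2 were called in 3d against 0d, where 0.219% of all tested genes were called, and 7 had an unadjusted p under 0.05, as did 5.94% of all genes. DESeq2 called 5 of the 10 and 0.654% of all genes there, and limma-voom 3 and 0.144%. The median log2 fold change was 0.61, against 0 over all genes. For 8 of the 10 both 3d libraries were above both 0d libraries, which 19.9% of all genes also showed. In 3d against 1d, 1 of the 10 was called, against 0.289% of all genes, the median was 0.36, and 8 of the 10 lay apart and higher, as did 20% of all genes. DESeq2 called 4 and limma-voom 1 there, against 0.66% and 0.265% of all genes. In 30d against 3d, 5 of the 10 were called, all lower, against 0.935% of all genes in either direction, with a median of -0.52. There, 6 of the 10 lay apart and lower, as did 23.5% of all genes, and DESeq2 called 6 and limma-voom 5, against 2.52% and 0.993% of all genes.

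In 1d against 0d, edgeR called none of the 10, and 0.346% of all genes. At an unadjusted p under 0.05 there were 2, Mt1 and Mt2, where 4.47% of all genes passed. DESeq2 called both, and 0.674% of all genes, and limma-voom called neither, and 0.283% of all genes. In 30d against 0d none was called by edgeR, against 0.0231% of all genes, with 2 at an unadjusted p under 0.05 (Ddit4 and Cdkn1a) against 12.3% of all genes, 1 called by DESeq2 (Ddit4) against 1.1%, and none by limma-voom against 0.0115%. In 30d against 1d none was called by edgeR, against 0.571% of all genes, with 3 at an unadjusted p under 0.05 against 11.7%. The 2 closest, Mt1 (-0.73 ± 0.13, adjusted p = 0.0661) and Mt2 (-1.06 ± 0.20, adjusted p = 0.139), were called by both DESeq2 and limma-voom, which called 1.46% and 0.467% of all genes, and also without 30d replicate 1 (-0.99 and -1.42, adjusted p = 5.35e-06 and 2.37e-06) or 2 (-0.51 and -0.76, adjusted p = 0.00584 and 0.00214).

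The number of calls moved with single libraries. In 3d against 0d it was 8 of the 10 without 30d replicate 1 and 7 without 30d replicate 2, although neither library belongs to that comparison, and the number called over all genes went from 38 to 121 and 110. It was 1 without either 0d library (26 and 63 over all genes) and 0 without either 3d library (1 and 3 over all genes), where the lone 3d library is assumed to vary like the other groups. In 30d against 3d, with 162 calls over all genes, it was 8 without 30d replicate 1 (525 over all), 3 without 0d replicate 1 (268) and 0 without either 3d library (12 and 22). In 3d against 1d, with 50 calls over all genes, it was 5 without either 30d library (117 each), 3 without 1d replicate 2 (43), and 0 without 1d replicate 1 (10) or either 3d library (5 and 8). In 1d against 0d, with 60 calls over all genes, it was 3 without either 30d library (111 and 108). In 30d against 0d, with 4 calls over all genes, it was 1 without 30d replicate 1 (71) and 5 without 30d replicate 2 (202). In 30d against 1d, with 99 calls over all genes, it was 3 without either (359 and 114). The cause of these shifts was not tested.

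Other genes known to be induced by glucocorticoids were examined as a list of 25, all of which were tested. In 3d against 0d, 22 of the 25 had a positive log2 fold change, against 49.2% of all genes, with a median of 0.18, and edgeR called 2, both higher, against 0.219% of all genes in either direction. At an unadjusted p under 0.05 there were 11, against 5.94% of all genes, and DESeq2 called 3 and limma-voom 1, against 0.654% and 0.144%. Fam107a, a stress-induced gene of actin organization, rose from 23.6 and 18.5 CPM at 0d to 52.0 and 46.5 CPM at 3d (1.23 ± 0.13, adjusted p = 0.00723). Without 3d replicate 1 its change was 1.15 (adjusted p = 0.101). Hif3a, a hypoxia-inducible factor subunit, rose from 1.10 and 1.37 CPM to 7.51 and 7.29 (2.58 ± 0.37, adjusted p = 0.0253). Its call was lost under limma-voom (adjusted p = 0.0581) and without any 1 of the 6 libraries of 0d, 1d and 3d, where the change was 2.43 to 2.75 and the adjusted p between 0.0993 and 0.209.

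The same list of 25 had 23 positive log2 fold changes in 3d against 1d, against 50.8% of all genes, with a median of 0.27. EdgeR called none of them there, with 15 at an unadjusted p under 0.05 against 4.24% of all genes, 5 called by DESeq2 against 0.66%, and 1 by limma-voom against 0.265%. The phagocytic receptor Mertk differed by 0.66 ± 0.14 (adjusted p = 0.0725), from 14.3 and 11.5 CPM at 1d to 21.1 and 19.8 CPM at 3d, and was called by DESeq2 (adjusted p = 0.00288), with no filter (0.00497), with the compared groups alone (0.00043) and without 30d replicate 1 or 2 (0.00479 and 0.00518). In 30d against 3d, 20 of the 25 were negative, where 50.1% of all genes were positive, with a median of -0.22. In 30d replicate 1, 21 of the 25 were higher than in replicate 2, where 50.4% of all genes were, by a median log2 difference of 0.23. The number was also 21 at 3d (median 0.04), and it was 18 at 0d (0.13) and 11 at 1d (0). At an unadjusted p under 0.05 were 15 of the 25, against 13% of all genes, and DESeq2 called 3 and limma-voom 1, against 2.52% and 0.993%. EdgeR called 1 of the 25 here, against 0.935% of all genes, namely Fam107a, which fell to 25.6 and 20.0 CPM (-1.11, adjusted p = 0.00502, and -1.03, adjusted p = 0.0627, without 3d replicate 1). In 1d against 0d, 17 of the 25 were negative (median -0.03), where 48.8% of all genes were positive, and none was called by edgeR, DESeq2 or limma-voom, with 3 at an unadjusted p under 0.05 against 4.47% of all genes.

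**Figure D4:**
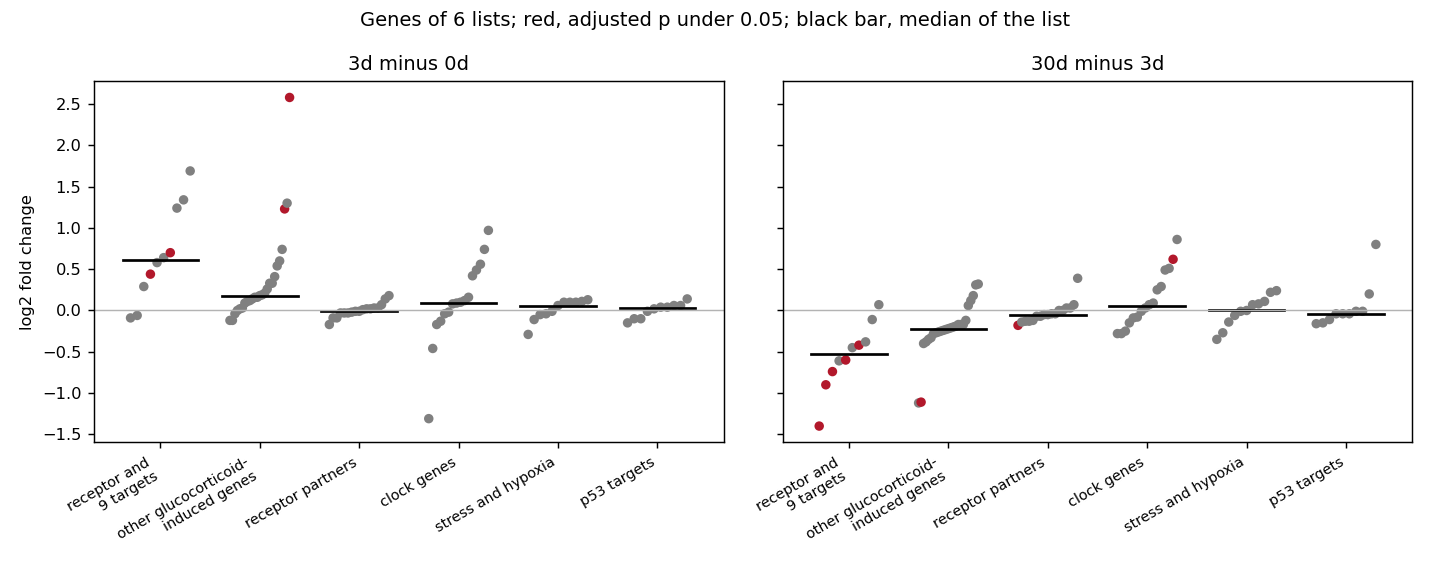
Log2 fold change (vertical axis) of the genes of 6 lists, 1 point per gene, in 3d minus 0d (left) and 30d minus 3d (right), with genes at an adjusted p under 0.05 in red and a black bar at the median of each list. The receptor with its 9 targets has a median of 0.61 on the left and -0.52 on the right, the 25 other glucocorticoid-induced genes 0.18 and -0.22, and the receptor partners -0.01 and -0.05.

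Partners of the receptor, 17 genes for the related mineralocorticoid receptor, the enzymes that make or remove active hormone, chaperones and coregulators, had medians between -0.05 and 0 in the 6 comparisons. Only Hsp90aa1, the inducible Hsp90 that holds the receptor, was called by edgeR, and it fell from 1060 CPM in both 3d libraries to 950 and 930 CPM at 30d (-0.18 ± 0.04, adjusted p = 0.0385), where 0.935% of all genes were called. In 30d against 0d, 6 of the 17 had an unadjusted p under 0.05, against 12.3% of all genes, and DESeq2 called 1, against 1.1%. The edgeR call of Hsp90aa1 in 30d against 3d was lost with upper-quartile scaling (adjusted p = 0.0615) and without robust estimation (0.0645). It was also lost without 3d replicate 1, 3d replicate 2 or 30d replicate 2 (changes of -0.18, -0.18 and -0.16). The co-chaperones Fkbp4, which counters Fkbp5, and Ptges3 each differed by -0.15 ± 0.05 from 0d to 30d (adjusted p = 0.235 and 0.243).

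Clock genes were listed because glucocorticoids follow a daily rhythm and the hour of dissection is not given in the sources used here. Of 16 clock genes, edgeR called 1 in the 6 comparisons, Nr1d1, a repressor of the clock, which was higher at 30d (112 and 95.7 CPM) than at 3d (71.6 and 63.9) by 0.62 ± 0.09 (adjusted p = 0.0162), where 0.935% of all genes were called. Without 3d replicate 1 or 2 the change was 0.70 or 0.53 (adjusted p = 0.0611 and 0.155). The clock activator Arntl was at 5.27 and 6.23 CPM at 0d, 2.80 and 2.90 CPM at 1d, 2.44 and 2.19 CPM at 3d, and 2.48 and 5.88 CPM at 30d (3d minus 0d -1.31 ± 0.32, adjusted p = 0.236 by edgeR). DESeq2 called 2 clock genes in 3d against 0d, where it called 0.654% of all genes, Arntl among them (-1.32, adjusted p = 0.0114), and Arntl was also called with the compared groups alone (0.0038) and without 30d replicate 1 or 2 (0.00099 and 0.00187). The clock repressor Cry1 differed by 0.42 ± 0.10 between 3d and 0d (adjusted p = 0.185). In replicate 1, 13 of the 16 were higher than in replicate 2 at 30d, where 50.4% of all genes were, and 10 of the 16 at each of 0d, 1d and 3d. The part of the hour of dissection in the levels of the receptor's targets was not tested.

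Summed markers of other cell types differed between libraries. The 5 neutrophil markers summed to 43.5 and 92.1 CPM at 0d, 101 and 109 CPM at 1d, 137 and 139 CPM at 3d, and 225 and 92.3 CPM at 30d, and none of the 5 was called in any comparison by edgeR, DESeq2 or limma-voom (at most 1 at an unadjusted p under 0.05, against 4.24% to 13% of all genes). The 3 satellite glia markers summed to 269 and 299 CPM at 0d, 206 and 186 CPM at 1d, 182 and 183 CPM at 3d, and 156 and 242 CPM at 30d. Between 0d and 3d the lower sum was mostly that of Fabp7, a fatty acid binding protein gene (-1.35 ± 0.40, adjusted p = 0.731), while Kcnj10 and Slc1a3 differed by -0.03 ± 0.08 and -0.10 ± 0.10 (adjusted p = 0.999 each). From 3d to 30d the summed level of the 4 Schwann cell markers went from 8900 and 8840 CPM to 5350 and 7580, and that of the 10 sensory neuron markers from 15700 and 15600 to 14500 and 14700. Macrophage markers ranged from 54.6 to 67.7 CPM, endothelial markers from 104 to 120 CPM and fibroblast markers from 701 to 997 CPM.

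Single markers within these sums passed edgeR's test, and are named for that reason. In 3d against 0d they were 2 of 10 sensory neuron, 1 of 5 macrophage and 1 of 8 muscle markers, where 0.219% of all genes were called. From 0d to 3d, the sensory neuron markers Calca, the gene of the neuropeptide CGRP, and Scn10a, a sodium channel gene of pain-sensing neurons, rose by 0.32 ± 0.05 and 0.22 ± 0.04 (adjusted p = 0.0237 and 0.0499). Over the same interval, the macrophage marker Cx3cr1, a chemokine receptor gene, fell by 1.02 ± 0.14 (adjusted p = 0.00794) and the muscle marker Myh1, a myosin gene, by 1.61 ± 0.27 (adjusted p = 0.0237). Without either 3d library these 4 calls were lost, with an adjusted p between 0.143 and 0.989. Without 0d replicate 1, Calca, Scn10a and Myh1 were not called (0.25, 0.18 and -1.15, adjusted p = 0.0845, 0.256 and 0.201), nor was Scn10a without either 1d library (0.22, adjusted p = 0.0643 and 0.0632). With no robust estimation Calca, Scn10a and Myh1 were not called (adjusted p = 0.0547, 0.103 and 0.0629), and neither Scn10a nor Myh1 was called by limma-voom (0.0581 and 0.124). Scn10a also lost its call with RLE (0.0509) and upper-quartile scaling (0.0589).

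From 3d to 30d, 1 of 10 sensory neuron and 1 of 8 muscle markers were called, against 0.935% of all genes. Calca fell by 0.43 ± 0.05 (adjusted p = 0.00201), a call that held without any 1 library. Myh1 rose by 1.35 ± 0.27 (adjusted p = 0.0292), but of the 8 muscle markers 4 were higher and 4 lower, with a median of 0.09. The Myh1 call was lost without 3d replicate 1 or 2 (1.47 and 1.22), with no robust estimation (adjusted p = 0.0582) and by limma-voom (0.0877). In the other comparisons, Myh1 fell from 0d to 1d and Cx3cr1 from 1d to 3d (adjusted p = 0.0324 and 0.0476). They were 1 of 8 muscle and 1 of 5 macrophage markers, where 0.346% and 0.289% of all genes were called. The Myh1 call was lost without 0d replicate 1 or any 1d or 3d library (adjusted p from 0.0692 to 0.494), with no robust estimation (0.0691), by limma-voom (0.421) and with the compared groups alone (0.0627). The Cx3cr1 call was lost without any library of 0d, 1d or 3d (0.0563 to 0.908), with upper-quartile scaling (0.0505), with no robust estimation (0.0718) and by limma-voom (0.113). The part of these cell types in the changes of the receptor's targets was not tested.

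Across the 8 libraries, the log2 CPM of the 9 targets correlated positively in 30 of 36 pairs, with a median Pearson r of 0.66 and a range from -0.62 to 0.97. The receptor gene's r with its targets ranged from -0.53 to 0.28, with a median of -0.25. Among the targets, Tsc22d3 was most like Fkbp5 (r = 0.93), followed by Zbtb16 (0.84), Sgk1 (0.83), Plin4 (0.82), Mt2 (0.70), Mt1 (0.66), Ddit4 (0.51) and Cdkn1a (-0.39). In this order, they ranked 10, 115, 125, 135, 517, 717, 1758 and 14401 among all tested genes by r with Fkbp5. Of all tested genes, the 5 most like Fkbp5 were Chpf2 (r = 0.976), Mir6538 (0.97), Jun (0.956), Hif3a (0.953) and Plaur (0.948), of which Mir6538 was below 1 CPM at every time point. These are descriptions over 8 libraries that share time points and library depth, and the share of positive pairs over all genes was not computed.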

How the data were processed

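Counts per gene of all 8 libraries were deposited by the authors in 1 table, without normalization. Per the labels and the file header, reads were trimmed with cutadapt 2.10, aligned to mm10 with STAR 2.7.5a and counted on UCSC genes with featureCounts 2.0.1, without regard to strand, with read pairs that overlapped several genes counted for each. Sample titles gave the time point and replicate of each library, and the labels give no batch. Replicates are pools of mice, so p-values measure the spread between pools.

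The analysis used R 4.3.3 and edgeR 4.0.16. After filterByExpr and TMM scaling, 6 comparisons were tested in 1 robust quasi-likelihood fit of the 8 libraries, with p-values adjusted over all 17328 genes tested (Benjamini-Hochberg) and called under 0.05. A standard error is the absolute log2 fold change over the root of its F statistic. Log2 CPM used a prior count of 2, and RPKM the gene lengths of the table. The alternatives were RLE and upper-quartile scaling, no filter, no robust estimation, DESeq2 1.42.0, limma-voom (limma 3.58.1), fits of only the groups compared, a block for the replicate number, and each library left out. The fit was also run on simulated data, and no result of that run is used here.

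The 10 genes and the other 16 lists were chosen with earlier results of these data known. The rule named all 10 genes, the 3 genes of each gene list with the smallest p in any comparison, and the 5 genes most correlated with Fkbp5. Markers are given as summed CPM, and those that passed are named. Promoters are from RefSeq (GRCm38.p6), and no proteins were used. At most 0.67% of the 50-base words of any of the 10 genes' transcripts were shared with another gene. Apart from Mt2, overlapping genes in GENCODE vM21 covered at most 4.44% of a gene's exon bases.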

Additional observations from a re-analysis of the deposited data

Results flagged for a closer look

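Differences between 2 times after injection are differences between their effects against 0d, and 6 of them passed the test among the 10 genes, 1 in 3d against 1d, 5 in 30d against 3d and none in 30d against 1d, where 0.289%, 0.935% and 0.571% of all genes passed. Sgk1 differed between 3d and 1d by 0.62 (log2, adjusted p = 0.0219 by edgeR). Between 30d and 3d the differences were -0.90 for Mt1, -1.40 for Mt2, -0.42 for Tsc22d3, -0.74 for Sgk1 and -0.60 for Ddit4. All 6 share the 3d libraries, and the calls were lost when either 3d library was left out.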

How the results depend on the processing

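The 2 calls in 3d against 0d, the Sgk1 call in 3d against 1d, and those of Tsc22d3, Sgk1 and Ddit4 in 30d against 3d remained in all 8 settings other than leaving out a library. In 30d against 3d, Mt1 lost its call in 2 of the 8 and Mt2 in 3. None of the 10 genes changed direction in these settings. The number of the 10 genes called was, with DESeq2, 2 in 1d against 0d, 5 in 3d against 0d, 1 in 30d against 0d, 4 in 3d against 1d and 2 in 30d against 1d, where it called 110, 109, 184, 110 and 229 of all genes against 60, 38, 4, 50 and 99 in the reported fit. With the compared groups alone it was 3 in 1d against 0d, 8 in 3d against 0d, 6 in 3d against 1d, and 3 in the comparison of 30d with 3d, where it called 64, 121, 260 and 273 of all genes. With no filter it was 3 in 3d against 1d (99 of all genes), and in 30d against 1d it was 2 both without robust estimation (74) and with limma-voom (81). Replicate numbers did not pair the libraries (correlations of deviations from -0.01 to 0.04). With the replicate number as a block, the count was 1 in 30d against 0d, 2 in 3d against 1d, 1 in 30d against 1d, 3 in 3d against 0d, and 4 in 30d against 3d, where Mt1 lost its call (adjusted p = 0.0573), with 69, 77, 159, 50 and 225 of all genes called. The block also called Mt2 in 3d against 0d (adjusted p = 0.0189) and Ddit4 in 30d against 0d (0.0475) and 3d against 1d (0.0089). The cause of these shifts was not tested.

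Leaving out 1 library gave 0 to 3 calls in 1d against 0d, 0 to 8 in 3d against 0d, 0 to 5 in 30d against 0d, 0 to 5 in 3d against 1d, 0 to 8 in 30d against 3d and 0 to 3 in 30d against 1d. It reversed the sign of 21 changes, 1 of Mtf1 and the others of the 10 genes, none of which was called with all 8 libraries. Of these, Zbtb16 and Plin4 in 30d against 3d and Plin4 in 30d against 1d were called without 30d replicate 1, and Plin4 in 30d against 0d without 30d replicate 2. In 1d against 0d the log2 changes ran from -0.24 to 0.13 for Zbtb16, -0.01 to 0.21 for Tsc22d3, -0.09 to 0.23 for Sgk1 and -0.19 to 0.02 for Ddit4. In 3d against 0d they ran from -0.12 to 0 for Nr3c1. In 30d against 0d they ran from -0.05 to 0.07 for Nr3c1, -0.37 to 1.81 for Plin4, -0.53 to 0.13 for Mt2, -0.04 to 0.08 for Tsc22d3, -0.16 to 0.09 for Sgk1 and -0.26 to 0.06 for Mtf1. In 3d against 1d they ran from -0.01 to 0.08 for Nr3c1 and -0.03 to 0.01 for Cdkn1a. In 30d against 3d they ran from -1.32 to 0.10 for Zbtb16, -2.06 to 0.12 for Plin4 and -0.25 to 0.02 for Cdkn1a. In 30d against 1d they ran from -0.14 to 0.21 for Fkbp5, -1.57 to 0.61 for Plin4, -0.19 to 0.03 for Tsc22d3, -0.27 to 0.05 for Sgk1 and -0.26 to 0.01 for Cdkn1a.

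There were 2 pools per time point and at least 44123208 counts per library. Genes with few counts are also limited by counting error.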
